A study of Mus musculus with 17 samples.

Results

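The genes of antigen presentation by the major histocompatibility complex (MHC) were followed in mouse brain after a 6-OHDA lesion, without and with NDST3. The 10 genes were taken by symbol. They were the class II chains H2-Aa, H2-Ab1 and H2-Eb1, the invariant chain Cd74, the peptide exchange factors H2-DMa and H2-DMb1, the class II regulator Ciita, the class I heavy chains H2-K1 and H2-D1, and the class I light chain B2m. All 10 were listed among the 20328 genes of the bulk RNA-seq table and among the 26650 rows of the single-cell table. B2m was the 1 member with an H3K27ac region, and no member had a region in the ATAC-seq table. In GRCm38.p6 the 7 H2 genes lie on chromosome 17, from H2-K1 (chr17:33996012-34000619) to H2-D1 (chr17:35263094-35267497), with H2-DMa, H2-DMb1, H2-Ab1, H2-Aa and H2-Eb1 between them. Ciita lies at chr16:10480014-10531064, B2m at chr2:122147687-122153082 and Cd74 at chr18:60803849-60812652.

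Class I molecules sit on nearly all nucleated cells and show peptides from inside the cell to CD8 T cells. Class II molecules are made mainly by B cells, dendritic cells, macrophages and activated microglia, and show peptides from ingested material to CD4 T cells. Ciita switches on the class II genes together with Cd74, H2-DMa and H2-DMb1. In healthy brain tissue both classes are low, and microglia are the resident cells best known for raising them after injury.

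The study asked what NDST3 changes in a model of Parkinson's disease. All groups were wild-type ICR mice, an outbred strain, and the labels give brain as the tissue. The 6-OHDA group had a unilateral injection of 10 µg/µl 6-OHDA, a toxin of catecholamine neurons, into the substantia nigra at 8 weeks of age. The 6-OHDA+NDST3 group had the same lesion and, 5 days later, 2 µl of an adeno-associated virus (AAV) carrying human NDST3 under the CMV promoter, which is not limited to 1 cell type. The methods describe saline in place of NDST3 for the other lesioned mice, so the effects of the vector and of NDST3 cannot be told apart here. Bulk RNA-seq had 2 sham libraries, 1 6-OHDA library and 2 6-OHDA+NDST3 libraries. Nothing in the labels says whether the libraries of a group came from separate animals, so p-values measure the spread between these libraries. H3K27ac CUT&RUN had 2 libraries per group in 1 deposited column per group. Single-cell RNA-seq was given for 1 library of each lesioned group, and its sham library was not analysed here.

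The bulk libraries held 51003699 to 70533326 counts, and 19300 genes with enough reads, all 10 members among them, were tested. Of 10 microglia markers, 9 rose in 6-OHDA against sham by an adjusted p under 0.05, and their summed level was 390 to 528 TPM (a level scaled for transcript length and depth) in sham, 2756 in 6-OHDA and 1062 to 1791 in 6-OHDA+NDST3. All 6 dopaminergic markers and all 7 neuron markers fell in 6-OHDA. Markers that rose were 4 of 6 for astrocytes, 3 of 4 for neutrophils, 3 of 4 for monocytes, 3 of 6 for endothelial cells and 5 of 6 for mural cells and fibroblasts. By the same rule 18.8% of all tested genes rose and 17.1% fell. With NDST3, 3 of 6 endothelial, 5 of 6 mural and fibroblast and 3 of 4 monocyte markers fell against 6-OHDA, where 6.59% of all tested genes fell. So did 1 of 6 dendritic cell and 1 of 5 B cell markers. In the same comparison 5 of 7 neuron, 3 of 6 dopaminergic and 1 of 6 dendritic cell markers rose, where 9.06% of all tested genes rose. The part of these cells in the results was not tested. Fewer cells of a type and less RNA per cell cannot be told apart in bulk tissue. Many of the H2 genes have many alleles and near relatives. Their reads from ICR mice, aligned to the C57BL/6J genome, can be lost or shared between genes, so levels of H2 genes are uncertain.

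Promoters of the MHC genes are known for a shared pair of elements, an X2 box followed by a Y box. RefSeq (GRCm38.p6) gave promoter sequence for 7 members, namely H2-Aa, H2-Eb1, H2-DMa, H2-DMb1, H2-K1, H2-D1 and B2m. In the 250 bases before a listed gene start, 6 of the 7 held the letters TGANG of the X2 core followed by ATTGG of the Y core. The pair was counted with 18 to 30 bases from the start of TGANG to the start of ATTGG. Of all 32851 promoters in that table, 2.75% held this pair on either strand, 84.8% held TGANG alone and 33.9% held ATTGG alone. The spacing window was set after these promoters had been read, so the count describes them. The stretches are shown because they carry the feature that class I and class II members share, with both cores in capitals.
H2-Aa: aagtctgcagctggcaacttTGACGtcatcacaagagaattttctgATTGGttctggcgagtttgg
H2-Eb1: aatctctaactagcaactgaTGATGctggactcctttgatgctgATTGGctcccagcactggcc
H2-DMb1: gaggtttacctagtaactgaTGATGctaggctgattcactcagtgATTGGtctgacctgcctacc
H2-K1: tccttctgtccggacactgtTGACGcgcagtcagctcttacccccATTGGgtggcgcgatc
H2-D1: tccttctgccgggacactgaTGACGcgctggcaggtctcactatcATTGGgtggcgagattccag
B2m: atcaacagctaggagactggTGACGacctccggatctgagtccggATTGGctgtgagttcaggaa
In these 6 stretches the distance from the start of TGANG to the start of ATTGG was 24 to 26 bases. ATTGG began 48 bases before the gene start in H2-Aa, 59 in H2-Eb1, 61 in H2-DMb1, 76 in H2-D1 and 53 in B2m. H2-K1 and H2-DMa have 2 listed starts each. Those of H2-K1 lie inside the gene range given above, and those of H2-DMa inside its range of chr17:34119693-34139101. The H2-K1 stretch itself thus lies inside the gene range. In the H2-K1 stretch ATTGG began 16 bases before the first of its listed starts. The H2-Aa stretch lies at chr17:34287852-34287917 on the minus strand, that of H2-Eb1 at chr17:34305764-34305827 on the plus strand and that of H2-DMb1 at chr17:34153085-34153149 on the plus strand. That of H2-K1 lies at chr17:34000348-34000408 on the minus strand, that of H2-D1 at chr17:35262973-35263037 on the plus strand and that of B2m at chr2:122147589-122147653 on the plus strand. Neither promoter listed for H2-DMa held the pair. Such matches are letters in a sequence and not measured binding.

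Every member was higher in the 6-OHDA library than in both sham libraries, with fold changes from 2.79 for H2-DMa to 12.9 for H2-Aa and Ciita. The quasi-likelihood test of edgeR, with p adjusted by Benjamini-Hochberg over all genes, called 9 of the 10 members at 0.05 (18.8% of all tested genes rose by this rule), and 10 of 10 had at least a 2-fold rise with a raw p under 0.05 (14.4% of all tested genes). The median log2 fold change of the 10 members was 2.95, against -0.0025 over all tested genes. The 3 class II chains, Cd74 and Ciita had the largest changes, and the class I genes the smallest standard errors.

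The chains that form the class II molecule were low in sham. H2-Aa, the alpha chain of I-A, had 5.73 and 2.84 CPM (counts scaled to library size) in sham, 55.0 in 6-OHDA, and 8.55 and 30.5 in 6-OHDA+NDST3. H2-Ab1, its beta chain, had 4.6 and 2.1 CPM in sham, 38.2 in 6-OHDA, and 7.19 and 22 in 6-OHDA+NDST3. For both genes the 3 groups did not overlap, with replicate 1 of 6-OHDA+NDST3 close to sham and replicate 2 nearer to 6-OHDA. The share of all tested genes that separate in this way is not given here, so non-overlap, here and below, describes only these libraries. In 6-OHDA against sham the log2 fold change was 3.69 ± 0.79 for H2-Aa (SE; adjusted p = 0.0233, edgeR) and 3.52 ± 0.74 for H2-Ab1 (adjusted p = 0.0226, edgeR), and both passed the test. H2-Eb1, the beta chain of I-E, had 8.48 and 1.80 CPM in sham, 44.9 in 6-OHDA, and 4.37 and 11.9 in 6-OHDA+NDST3. Its sham libraries differed 4.72-fold, more than those of any other member, and the 6-OHDA+NDST3 libraries overlapped them. Its log2 fold change in 6-OHDA was 3.14 ± 0.95 (SE; adjusted p = 0.0578, edgeR), and H2-Eb1 was the 1 member that missed the threshold.

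Cd74, the invariant chain that escorts class II chains to endosomes, had the highest level of the class II members. It had 24.6 and 9.79 CPM in sham, 192 in 6-OHDA, and 34.9 and 132 in 6-OHDA+NDST3, with a log2 fold change of 3.49 ± 0.87 in 6-OHDA against sham (SE; adjusted p = 0.0344, edgeR). No groups overlapped, and the 6-OHDA+NDST3 libraries lay far apart. The peptide exchange factor moved less. H2-DMa had 11.0 and 7.60 CPM in sham, 25.9 in 6-OHDA, and 9.96 and 13.7 in 6-OHDA+NDST3, which overlapped sham. H2-DMb1, the partner chain of H2-DMa, had 2.04 and 1.23 CPM in sham, 8.46 in 6-OHDA, and 3.21 and 4.77 in 6-OHDA+NDST3. The groups of H2-DMb1 did not overlap. Both chains rose in 6-OHDA, with log2 fold changes of 1.48 ± 0.29 for H2-DMa (SE; adjusted p = 0.0195, edgeR) and 2.38 ± 0.41 for H2-DMb1 (adjusted p = 0.0141, edgeR).

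Ciita, the coactivator of the class II genes, was the rarest member. It had 18 counts in each sham library (0.349 and 0.261 CPM), 203 in 6-OHDA (3.93 CPM), and 40 and 140 in 6-OHDA+NDST3 (0.672 and 2.35 CPM). The groups did not overlap, and the log2 fold change of Ciita in 6-OHDA against sham was 3.69 ± 0.77 (SE; adjusted p = 0.0219, edgeR).

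Among the class I genes B2m and H2-D1 were the most abundant members. H2-K1 stood below Cd74 in sham replicate 1, the 6-OHDA library and 6-OHDA+NDST3 replicate 2. It stood above Cd74 in sham replicate 2 and 6-OHDA+NDST3 replicate 1. H2-K1 had 14.9 and 17.4 CPM in sham, 95.7 in 6-OHDA, and 55.0 and 78.9 in 6-OHDA+NDST3. H2-D1 had 124 and 105 CPM in sham, 608 in 6-OHDA, and 279 and 443 in 6-OHDA+NDST3. B2m, which pairs with every class I heavy chain, had 90.7 and 74.0 CPM in sham, 557 in 6-OHDA, and 215 and 305 in 6-OHDA+NDST3. For all 3 genes the 6-OHDA+NDST3 libraries lay above both sham libraries and below the 6-OHDA library. In 6-OHDA against sham the log2 fold change was 2.57 ± 0.23 for H2-K1 (SE; adjusted p = 0.0082, edgeR), 2.41 ± 0.28 for H2-D1 (adjusted p = 0.0085, edgeR) and 2.76 ± 0.24 for B2m (adjusted p = 0.0082, edgeR).

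**Figure D1:**
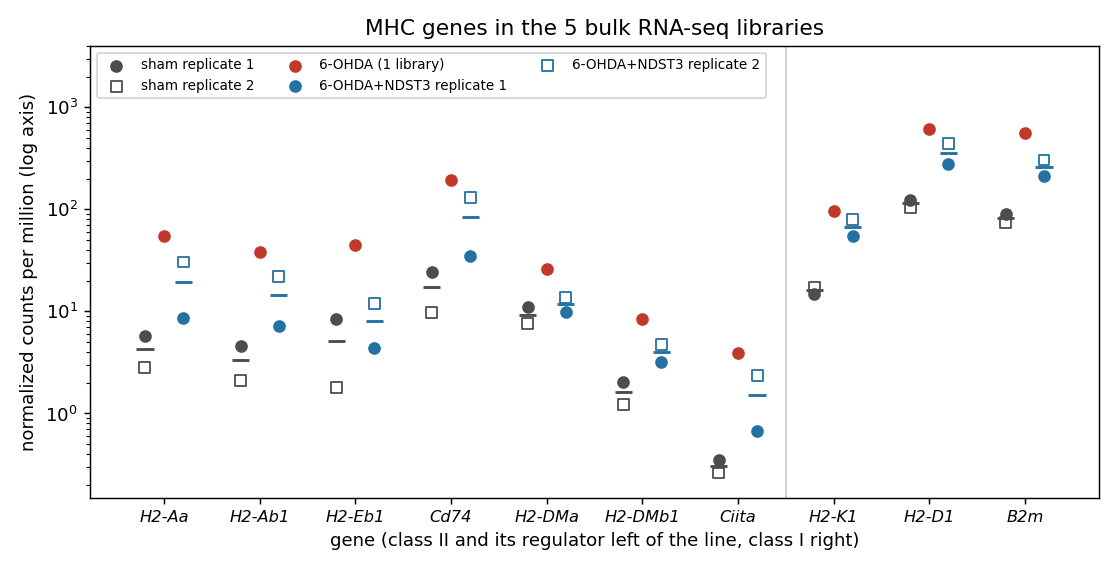
Normalized CPM of the 10 MHC genes (log axis) in each bulk RNA-seq library, with horizontal bars at the mean of the groups with 2 libraries. The 6-OHDA library is the highest for each gene, and Cd74 spreads from 34.9 to 132 between the 6-OHDA+NDST3 libraries while B2m spreads from 215 to 305.

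These calls rest on both sham libraries. Without sham replicate 1 no member passed by adjusted p and 10 passed by the fold rule, and without sham replicate 2 the counts were 0 and 6, although every member kept its higher level in 6-OHDA. The log2 fold change of H2-Eb1 was 4.64 without sham replicate 1 and 2.40 without sham replicate 2. That of Ciita was 0.46 with limma on log2(FPKM + 1) and 1.98 on log2(FPKM + 0.1), scales that understate the change of low genes. The single 6-OHDA library was assumed to vary like the other groups.

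Compared per length, in TPM, B2m led the members in sham (234 ± 34.0, SD, n = 2), ahead of H2-D1 (161 ± 18.9). Cd74 (32.0 ± 19.5) and H2-K1 (19.9 ± 2.16) overlapped each other. H2-Aa, H2-DMa, H2-Eb1 and H2-Ab1 followed with means of 9.27, 8.85, 7.52 and 6.85, each overlapping the next, and H2-DMb1 (3.09 ± 1.08) and Ciita (0.0812 ± 0.0189) came last. In the 6-OHDA library the order was B2m (1384 TPM), H2-D1 (746), Cd74 (313), H2-Aa (104), H2-K1 (103), H2-Ab1 (68.3), H2-Eb1 (57.4), H2-DMa (23.1), H2-DMb1 (14.0) and Ciita (0.943). H2-Aa thus stood beside H2-K1 in that library, and H2-DMa stood below all 3 of the class II chains. In 6-OHDA+NDST3 all neighbours in the order overlapped except H2-D1 with Cd74 and H2-DMb1 with Ciita.

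The ratio of partner genes within a library varied less than their levels. The TPM of H2-Aa was 1.26 to 1.52 times that of H2-Ab1 over the 5 libraries, and Cd74 was 2.97 to 3.73 times H2-Aa. H2-Eb1 behaved otherwise, with 1.00 and 0.428 times the TPM of H2-Aa in sham, 0.552 in 6-OHDA, and 0.345 and 0.263 in 6-OHDA+NDST3. H2-D1 was 5.77 to 9.48 times H2-K1. H2-DMa was 2.70 and 3.14 times H2-DMb1 in sham and 1.48 to 1.65 times in the 3 lesioned libraries.

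With NDST3, the fold changes of all 10 members against the 6-OHDA library were below 0, and 1 member, B2m, passed by adjusted p. Its log2 fold change was -1.10 ± 0.24 (SE; adjusted p = 0.0465, edgeR), where 6.59% of all tested genes fell by this rule. This call was near the threshold: the adjusted p of B2m was 0.00026 with DESeq2, 0.052 in edgeR without a filter, 0.069 and 0.071 with limma, and 0.120 in edgeR with only the 2 groups compared. It was 0.114 and 0.115 in edgeR without a sham library and 0.082 without 6-OHDA+NDST3 replicate 1. By at least a 2-fold fall with a raw p under 0.05, 4 of 10 members fell, namely H2-Eb1 (log2 fold change -2.47 ± 0.94), H2-DMa (-1.13 ± 0.30), H2-DMb1 (-1.08 ± 0.41) and B2m. Of all tested genes, 8.37% fell by this rule. The other members had log2 fold changes of -1.49 for H2-Aa, -1.39 for H2-Ab1, -1.20 for Cd74, -1.38 for Ciita, -0.75 for H2-D1 and -0.51 for H2-K1, with standard errors of 0.76, 0.72, 0.85, 0.72, 0.29 and 0.24. The median of the members was -1.17, against 0.0029 over all tested genes. This comparison and that of 6-OHDA with sham share the single 6-OHDA library, so a high value in that library would raise the first and lower the second.

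The 6-OHDA+NDST3 libraries differed from each other more in Cd74, Ciita and the 3 class II chains than in the other members. Replicate 2 over replicate 1 was 3.78 for Cd74, 3.57 for H2-Aa, 3.49 for Ciita, 3.07 for H2-Ab1 and 2.72 for H2-Eb1 in CPM. The same ratio was 1.37 for H2-DMa, 1.49 for H2-DMb1, 1.44 for H2-K1, 1.59 for H2-D1 and 1.42 for B2m. The summed TPM of the 10 microglia markers had a ratio of 1.69, and that of 5 B cell markers 1.54. Among the microglia markers Fcrls had 1094 and 8745 counts in these libraries, and 927 and 257 in sham. Summed markers of other cells that can carry class II were also highest in 6-OHDA. The summed TPM of 6 dendritic cell markers was 21.8 to 29.1 in sham, 115 in 6-OHDA, and 73.3 and 98.6 in 6-OHDA+NDST3, and that of 4 tested monocyte markers was 20.1 to 25.1, 54.6, and 25.0 and 37.9. For 6 markers of brain border macrophages the sum was 13.9 to 24.5 in sham, 62.9 in 6-OHDA, and 14.8 and 27.5 in 6-OHDA+NDST3. Only Ms4a7 of these rose by adjusted p in 6-OHDA against sham (log2 fold change 4.75), and Cd163 had -0.79. Of the dendritic cell markers Itgax, which activated microglia also express, had 685 and 312 counts in sham and 8995 in 6-OHDA, whereas Flt3 had 741 and 1186 in sham and 262 in 6-OHDA. The 5 tested B cell markers summed to 22.1 to 28.1 in sham, 59.2 in 6-OHDA, and 25.4 and 39.1 in 6-OHDA+NDST3. Of the 8 listed, 3 were too low to test. By adjusted p, 2 of the 5 rose in 6-OHDA against sham, the immunoglobulin genes Ighm and Igkc. Pax5 fell, with 1160 and 1342 counts in sham and 134 in 6-OHDA (log2 fold change -3.01), and Cd79a and Bank1 did not pass. Whether numbers of microglia or these cells had a part in these differences was not tested.

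The fold changes depended on which 6-OHDA+NDST3 library was used. Without replicate 2, the library with more class II RNA, the log2 fold changes of the members ranged from -3.39 to -0.83. Without replicate 1 they ranged from -1.92 to -0.28. The counts of called members depended on this choice too.

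Compared with sham, the 6-OHDA+NDST3 libraries had higher mean levels of all 10 members, with log2 fold changes from 0.35 for H2-DMa to 2.31 for Ciita and a median of 1.86, against 0.0099 over all tested genes. No member passed by adjusted p (lowest 0.152, edgeR), and 0% of all genes did. By the fold rule 8 of 10 members rose, where 4.78% of all tested genes did, and 8 members had a raw p under 0.05. The 2 that were not called were H2-DMa and H2-Eb1 (log2 fold change 0.67 ± 0.82). The class I genes H2-K1, H2-D1 and B2m had log2 fold changes of 2.05 ± 0.21, 1.66 ± 0.25 and 1.66 ± 0.21. Limma called none by adjusted p, and DESeq2 called 5, H2-K1, H2-D1, B2m, Ciita and H2-DMb1. The share of all genes that DESeq2 called is not given here. Without 6-OHDA+NDST3 replicate 2 the log2 fold changes of the members ranged from -0.25 to 1.75, and without sham replicate 2 from -0.066 to 2.17. Without sham replicate 1 they ranged from 0.63 to 3.09, and without 6-OHDA+NDST3 replicate 1 from 0.56 to 2.95.

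**Figure D2:**
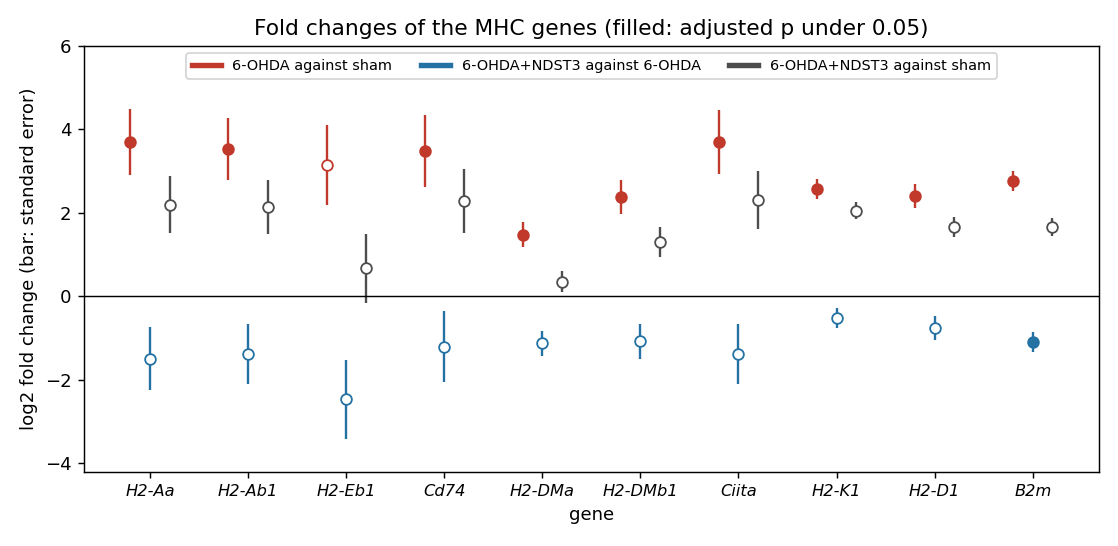
Log2 fold changes of the 10 MHC genes in the 3 bulk comparisons, with the standard error as bars and filled circles for an adjusted p under 0.05. In 6-OHDA against sham 9 circles are filled, in 6-OHDA+NDST3 against 6-OHDA only B2m is filled, and in 6-OHDA+NDST3 against sham none is.

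The other genes of the pathway were read from a list of 69, of which 62 were tested. In 6-OHDA against sham 43 rose and 3 fell by adjusted p, with a median log2 fold change of 1.64, where 18.8% of all tested genes rose and 17.1% fell. These calls too rest on both sham libraries, since none of the 46 remained without either one. All 5 immunoproteasome genes rose, among them Psmb9 (3.07) and Psmb8 (3.01), subunits that cut peptides fit for class I. Of 8 class I loading genes 6 rose, led by Tap1 (2.43), which pumps peptides into the endoplasmic reticulum, and Tapbp (1.71), which holds class I molecules at that pump. Of 15 class I relatives 9 rose, led by H2-Q6 (2.58) and H2-Q7 (2.53). Both relatives resemble H2-K1 and H2-D1 in sequence.

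Of 9 class II relatives and proteases 7 rose, led by Ctss (3.35), the protease that trims Cd74, and Ifi30 (2.99), which reduces disulfide bonds of ingested proteins. Of 6 co-stimulation genes 4 rose, with Cd86 at 3.37 and Cd80 at 2.80. Of 4 tested co-receptors and class I receptors 3 rose, led by the inhibitory receptors Lilrb4a (4.62) and Pirb (3.52). Among 15 regulators 9 rose and 2 fell, and the largest changes were those of Spi1 (3.45) and Irf8 (3.45), transcription factors of myeloid cells.

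The regulators did not all move in 1 direction. Rfx5 and Rfxap, subunits of the factor that binds MHC promoters, fell by 0.90 and by 0.70, and with the class I relative H2-M5 they were the 3 genes that fell (named after their values were seen). Rfx5 had 29.0 and 32.1 CPM in sham, 16.4 in 6-OHDA, and 29.0 and 27.5 in 6-OHDA+NDST3. The 6-OHDA library stood below all others for Rfx5, the opposite of the members, and Rfx5 rose by 0.79 in 6-OHDA+NDST3 against 6-OHDA (adjusted p = 0.0365, edgeR). Nlrc5, the class I counterpart of Ciita, had 2.17 and 1.23 CPM in sham, 8.21 in 6-OHDA, and 3.86 and 5.01 in 6-OHDA+NDST3. In 6-OHDA+NDST3 against 6-OHDA 12 pathway genes fell by adjusted p and Rfx5 alone rose, with a median of -0.83. Of all tested genes 6.59% fell and 9.06% rose by this rule. Against sham no pathway gene passed by adjusted p (0% of all tested genes did), and 34 of 62 had a raw p under 0.05. The share of all genes by raw p alone is not given here. The 13 calls against 6-OHDA became 32 with DESeq2, and 0 without either sham library, without 6-OHDA+NDST3 replicate 1 or with only the 2 groups compared.

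The single-cell table gave the mean level of each gene in 9 clusters, on a natural log scale, for the 6-OHDA and the 6-OHDA+NDST3 library. The paper describes a filter on the number of detected genes per cell, meant in part to limit doublets. Cluster means do not allow any doublets that were left to be called. With 1 library per group there is no test, and cell numbers per cluster were not used here. By their markers, cluster 6 was microglia-like (9 of 10 microglia markers highest there), cluster 9 was B cell-like (8 of 8), cluster 4 was T cell-like (9 of 9), cluster 1 was neutrophil-like (6 of 6), cluster 7 was endothelial-like (6 of 6) and cluster 5 was mural-like (4 of 6). Cluster 3 had all 10 microglia markers above 0.1 but only 1 at its highest there, with 4 of 6 markers of brain border macrophages highest there at low levels, and it was left unnamed. Clusters 2 and 8 were left unnamed too.

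In the 6-OHDA library the B cell-like cluster 9 led in all class II members but H2-DMb1. Cd74 was at 4.58 there, 1.83 in cluster 3, 1.51 in the neutrophil-like cluster 1 and 0.84 in the microglia-like cluster 6. H2-Aa was at 2.61 in cluster 9, 0.81 in cluster 3, 0.71 in cluster 1 and 0.10 in cluster 6. Class I followed another order. The T cell-like cluster 4 led, with H2-K1 at 2.95, H2-D1 at 3.06 and B2m at 2.74, and the lowest level of each of the 3 genes was in cluster 2 (0.95, 0.91 and 0.84).

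With NDST3 the class II genes were higher in clusters 3, 6 and 9. In cluster 3, 4 genes of 6675 detected above 0.1 in either library were higher by at least 1 on the log2 scale (0.0599% of the genes detected), and all 4 were members. They were Cd74, from 1.83 to 3.87 on the natural log scale, H2-Aa, from 0.81 to 2.62, H2-Ab1, from 0.79 to 2.47, and H2-Eb1, from 0.36 to 1.79. On the log2 scale these differences of mean log values were 2.94, 2.61, 2.43 and 2.07. The next gene of that cluster by difference was H2-D1 (0.84), the sixth H2-DMa (0.76), the seventh H2-K1 (0.75) and the eleventh H2-DMb1 (0.65). B2m differed by 0.40 and Ciita by 0.17, from 0.035 to 0.15 on the natural log scale.

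In the microglia-like cluster 6, 3 of 6595 detected genes were higher by at least 1 on the log2 scale (0.0455%), and they were Cd74, H2-Ab1 and H2-Aa. Cd74 went from 0.84 to 2.19 on the natural log scale, H2-Ab1 from 0.15 to 1.04 and H2-Aa from 0.10 to 0.98. H2-Eb1 lay just below the size rule at 0.94 on the log2 scale and came next after them among the cluster's genes, before H2-D1 (0.77) and H2-K1 (0.65). The 10 microglia markers did not move with them. Their summed level was 17.5 in 6-OHDA and 16.3 with NDST3 in cluster 6, and 11.1 and 10.4 in cluster 3.

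In the B cell-like cluster 9, 7 of 6640 detected genes passed the size rule (0.105%), with H2-Eb1 and H2-Aa in the lead. H2-Eb1 went from 1.51 to 3.32 and H2-Aa from 2.61 to 3.80 on the natural log scale, while H2-Ab1 (0.98 on the log2 scale) lay just below the rule. The co-stimulator Cd86 was another of the 7, from 1.13 to 1.90. Cd74, already high, went from 4.58 to 4.94. H2-K1 had 2.36 and 2.31 there, while H2-D1 went from 2.46 to 2.57 and B2m differed by 0.17 on the log2 scale. Among the B cell markers of this cluster Cd79b differed by -0.88, Ighm by -0.69, Igkc by -0.53 and Bank1 by 0.51 on the log2 scale, and the 8 markers summed to 18.8 and 17.2.

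Elsewhere the differences were smaller. No member passed the size rule in clusters 1, 2, 4, 5, 7 and 8. Cd74 was nonetheless the gene with the largest rise of all detected genes in clusters 2, 5 and 7 (0.54, 0.73 and 0.73 on the log2 scale), where the summed microglia markers were at 1.37 to 2.66 and the B cell markers at 0.081 to 0.34. In the endothelial-like cluster 7 Cd74 went from 0.24 to 0.75 on the natural log scale. Igkc, an immunoglobulin gene of B cells, was at 0.0074 to 0.046 in clusters 1 to 8 of the 6-OHDA library and at 0.094 to 0.23 in the 6-OHDA+NDST3 library, higher in each of the 8 clusters. The part of such RNA in the MHC levels was not tested. Cd79a, a defining B cell gene, went from 0.0030 in 6-OHDA to 0.020 with NDST3 in cluster 3 and from 0.0041 to 0.025 in cluster 6. It was at 0.0047 and 0.0028 in cluster 2, and at 3.23 and 3.03 in cluster 9.

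**Figure D3:**
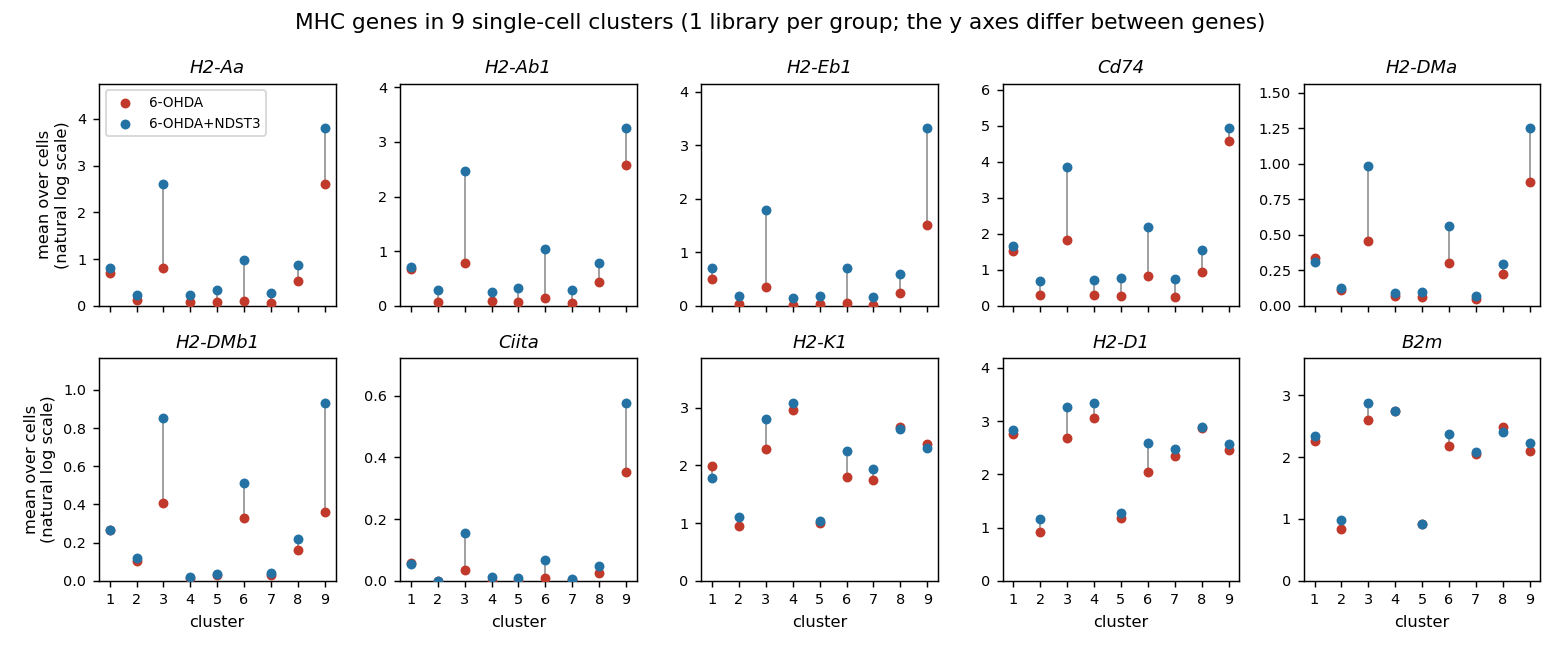
Mean level over the cells of each cluster (natural log scale) of the 10 MHC genes in the 6-OHDA and 6-OHDA+NDST3 libraries, joined by a line per cluster, with a separate axis range per gene. The class II genes stand higher with NDST3 in clusters 3, 6 and 9, with Cd74 at 3.87 against 1.83 in cluster 3, and the class I genes differ by at most 0.58.

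In cluster 3 the other genes of the pathway differed by less than Cd74 and the class II chains. There, 37 of 49 detected pathway genes were higher with NDST3 and none passed the size rule, with a median difference of 0.12 on the log2 scale against 0.0056 over all detected genes. The largest were the class I relatives H2-Q7 (0.75) and H2-T23 (0.65). Ifng, the interferon that induces Ciita, was at 0.42 and 0.61 in the T cell-like cluster 4 and at most 0.0063 in clusters 3, 6 and 9. In cluster 6, 31 of 47 detected pathway genes were higher (median 0.063, all genes 0.0050), and in cluster 9, 32 of 48 (median 0.071, all genes -0.025). The pathway differed as much in the T cell-like cluster 4, with 36 of 49 higher (median 0.097, all genes 0.0080) and 2 past the size rule, Cd8a and Cd8b1, and in cluster 8, with 36 of 50 (median 0.075, all genes 0.011).

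Across the 18 cluster means of both libraries, the genes most like the mean of the 6 class II structural members were H2-Oa (Pearson r = 0.942), Pkib (0.918), Pold4 (0.895), Hvcn1 (0.895) and Btk (0.884). The genes most like the mean of H2-K1, H2-D1 and B2m were Psmb8 (0.920), Psmb9 (0.889), Pabpc1 (0.884), Arpc3 (0.879) and Rps29 (0.877). These values describe 18 points that come from 2 libraries.

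Bulk tissue and single cells thus gave opposite directions for class II in the same contrast. Against 6-OHDA, Cd74 stood at -1.20 ± 0.85 (log2 fold change and SE) in bulk RNA and was higher with NDST3 in all 9 clusters. H2-Aa, H2-Ab1, H2-Eb1 and H2-D1 were likewise lower in both bulk 6-OHDA+NDST3 libraries than in the 6-OHDA library and higher in all 9 clusters. None of these 5 bulk differences passed by adjusted p. The share of all genes with this pattern is not given here. B2m, the member called in bulk, was higher in 8 of 9 clusters, by at most 0.40 on the log2 scale. The bulk values include the number of cells of each kind and the cluster means do not, and the difference between the assays was not tested.

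**Figure D4:**
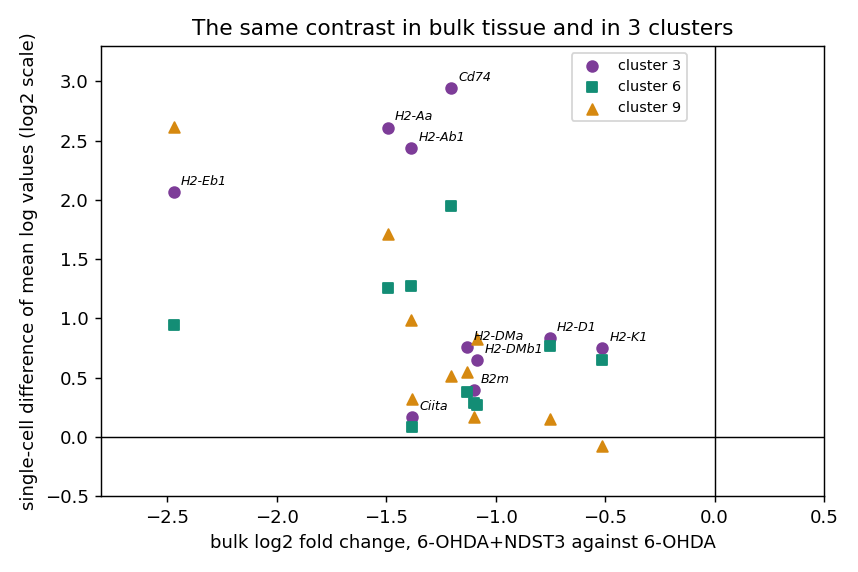
Bulk log2 fold change (x axis) and single-cell difference of mean log values on the log2 scale (y axis) for 6-OHDA+NDST3 against 6-OHDA, with 1 point per gene and cluster and names beside the cluster 3 points. The points are those of clusters 3, 6 and 9. All lie left of 0, and all but H2-K1 in cluster 9 lie above 0.

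At B2m, 1 region of H3K27ac, a histone mark of active promoters and enhancers, was listed at -187 bases from the gene start. The deposited position is chr2:121977924-121978039, which does not fall at the B2m start of GRCm38 although the labels name mm10. Only 3.74% of the 2913 plus-strand genes with an H3K27ac region had an implied start within 1000 bases of their GRCm38 start, so no sequence was read from these positions. The tag signal was 10.1 in sham, 10.4 in 6-OHDA and 25.4 in 6-OHDA+NDST3, each from 1 pooled column. How it was normalized between the groups is not given in the sources used here. Sham and 6-OHDA were nearly equal and 6-OHDA+NDST3 stood apart, 2.30-fold above 6-OHDA after adding 1 (log2 ratio 1.20). Over all 11326 regions the median log2 ratio was 0.39, 11.1% were at least 2-fold higher, and 93.8% had a lower ratio than B2m. The order of the groups at this region was not that of B2m RNA, which was highest in 6-OHDA. Among pathway genes, 31 regions of 22 genes were listed.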

How the data were processed

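Bulk RNA-seq (5 libraries), H3K27ac CUT&RUN, ATAC-seq and single-cell RNA-seq of mouse brain were analysed from deposited tables, and samples were grouped by their treatment labels. The 10 genes, the pathway list, the markers and the tests were chosen with earlier results of these data known. The authors trimmed RNA-seq reads, aligned them to mm10 with HISAT2 and used StringTie for the count of each gene that they deposited. They also deposited FPKM and TPM values, which the authors scaled for length and depth. Cluster means of the single cells were deposited as mean counts, and were taken, from their range, as means of a natural log of normalized counts plus 1. For chromatin regions the authors gave a tag signal, whose normalization is not given in the sources used here. Among the tools in the submitters' processing notes are Trim Galore, Bowtie and Cell Ranger. Columns of the authors' own comparisons were not used.

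Counts were fitted with edgeR 4.0.16 in R 4.3.3 over all 5 libraries, with TMM factors, its default filter, the quasi-likelihood test and Benjamini-Hochberg adjustment over 19300 genes. The fit had 2 residual degrees of freedom, and the common biological coefficient of variation was 20.3%. The fit was also run on simulated counts with the same spread for every gene and few changed genes, a simpler setting than these data. That run does not show how well the fit handles the members. CPM was computed from the counts, TPM was used for levels between genes, and FPKM for limma. Genes were called at an adjusted p under 0.05, and at 2-fold with a raw p under 0.05. Alternatives were RLE and upper-quartile factors, other filters, DESeq2 1.42.0, limma 3.58.1 on log2(FPKM + 1) or log2(FPKM + 0.1), only the groups compared, a replicate block, and each library left out. All 10 members were named, and of each pathway group the 2 tested genes with the largest change in 6-OHDA against sham and a mean of at least 1 CPM. By likeness, 5 genes were named per class among those above 0.5 in some cluster. Single-cell genes counted as detected above 0.1, and 4 rows with duplicated names were left out. H3K27ac ratios were taken after adding 1. Python 3.11.15 and pandas 2.3.3 were used.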

Additional observations from a re-analysis of the deposited data

Results flagged for a closer look

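The 5 members H2-Aa, H2-Ab1, H2-Eb1, Cd74 and H2-D1 had opposite directions in bulk tissue and in single cells for 6-OHDA+NDST3 against 6-OHDA. Both bulk 6-OHDA+NDST3 libraries lay below the 6-OHDA library, and the mean was higher with NDST3 in all 9 clusters. The 5 members were picked by this rule, and the share of all genes that meet it is not given here. The bulk log2 fold changes were -1.49 for H2-Aa, -1.39 for H2-Ab1, -2.47 for H2-Eb1, -1.20 for Cd74 and -0.75 for H2-D1. The single-cell differences in cluster 3, on the log2 scale, were 2.61 for H2-Aa, 2.43 for H2-Ab1, 2.07 for H2-Eb1, 2.94 for Cd74 and 0.84 for H2-D1. The difference between the assays was not tested, since single cells have 1 library per group and bulk has 1 6-OHDA library.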

How the results depend on the processing

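In 6-OHDA against sham, all 10 members had higher levels under every alternative run. Leaving out a library moved the count by adjusted p between 0 and 10 and the count by the fold rule between 6 and 10. In 6-OHDA+NDST3 against 6-OHDA, all 10 had fold changes below 0 under every alternative run. The count by adjusted p was 3 with DESeq2, 0 without a filter, 0 with limma at either pseudocount and 0 with only the 2 groups compared. The count by the fold rule was 2 with upper-quartile factors, 2 without a filter, 2 with a mean of at least 1 CPM and 2 with limma on log2(FPKM + 0.1). With a library left out these counts ranged from 0 to 5 and from 0 to 9. In 6-OHDA+NDST3 against sham, DESeq2 called 5 members by adjusted p, limma on log2(FPKM + 1) called 4 by the fold rule, and leaving out a library gave 0 to 3 and 3 to 8. H2-Eb1 changed sign there, to -0.066 without sham replicate 2 and -0.25 without 6-OHDA+NDST3 replicate 2, and ranged up to 2.17 with another library left out. The cause of these changes was not tested. Where a library was left out, its group had 1 library, which was assumed to vary like the other groups. The share of all genes called under the alternatives is not given here.

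With the replicate block, 3 members passed by adjusted p in 6-OHDA against sham (H2-K1, H2-D1 and B2m), and 24 pathway genes. In 6-OHDA+NDST3 against 6-OHDA the block gave 0 members by adjusted p (B2m 0.168, edgeR) and 2 by the fold rule, and in 6-OHDA+NDST3 against sham 5 by the fold rule. Same-numbered libraries share only a number. The deviations of replicate 1 from its group mean in sham and in 6-OHDA+NDST3 had a correlation of -0.43 over genes.

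The H3K27ac log2 ratio at B2m with pseudocounts of 0.1 and 5 was 0.056 and 0.038 for 6-OHDA against sham, 1.27 and 0.98 for 6-OHDA+NDST3 against 6-OHDA, and 1.33 and 1.01 for 6-OHDA+NDST3 against sham. Depth does not limit the abundant members, while Ciita rests on 18 counts in each sham library. Differences of back-transformed means had the same sign as those on the deposited scale for every member and cluster.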
